A study of Mus musculus with 13 samples.

Results

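The transcripts examined were those of 10 genes that are widely used to recognize macrophages, followed through CD45- libraries of the mouse thymus. The genes were Lyz2, Csf1r, Adgre1, Cd68, C1qa, C1qb, C1qc, Mertk, Itgam and Cd163, and each symbol matched 1 of the 53379 genes in the count matrix. All 10 passed the filter on low counts, which left 19984 genes for testing. Bulk RNA-seq had been run on CD45- thymic stromal cells of 2-month-old wild-type C57BL/6 mice. The thymus was digested with enzymes, red cells were lysed, and CD45+ blood cells were depleted before sorting. Steady state was represented by 4 libraries, and days 1, 4 and 7 after a sublethal dose of total body irradiation (TBI) by 3 each. The labels call the steady-state mice untreated, whereas the columns of the matrix name them PBS (phosphate-buffered saline) controls. They are given here by column, as replicate 2 of PBS day 1, replicate 2 of PBS day 4 and replicates 1 and 2 of PBS day 7.

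Macrophages are phagocytes of the myeloid lineage, and in the thymus they clear the many thymocytes that die during selection. Engulfment of dying cells (efferocytosis) depends on opsonins such as C1q, which bind to the dying cell, and on receptors such as MERTK, which bind bridging proteins that recognize phosphatidylserine on its surface. The cells depend on the receptor CSF1R, whose ligands CSF1 and IL-34 are made by stromal cells. Macrophages carry CD45 and should be removed by depletion and sorting, so their transcripts in these libraries measure what remained of them or what stromal cells themselves express. A bulk library does not tell fewer macrophages from less macrophage RNA per cell.

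The libraries held 15721866 to 52056896 counts, with a median of 44078906. Levels are given as counts scaled by the TMM-normalized library size (CPM). The stromal markers were present in every library, with 616 to 1280 CPM of Pdgfra (fibroblasts), 199 to 432 CPM of Pecam1 (endothelium) and 14.0 to 155 CPM of Epcam (epithelium). Ptprc, which encodes CD45 itself, was also present, at 24.0 to 119 CPM at steady state, 13.5 ± 1.27 (SD, n = 3) at day 1, 4.07 to 4.54 at day 4, and 21.6, 606 and 224 CPM in replicates 1, 2 and 3 of day 7. The summed level of 14 thymocyte genes moved with it, from 289 to 932 CPM at steady state, 138 to 177 at day 1, 31.5 to 47.0 at day 4 and 254 to 5990 at day 7, and Ptcra, the pre-TCR alpha chain, had 1.85, 37.9 and 16.8 CPM in the 3 libraries of day 7. Replicate 1 of day 7 thus stood apart from the other 2 of its group in its blood cell RNA, and the values of the 10 genes that rest on it are given with and without it. The column names of day 7 share a tag part that is found in no other group, and it cannot be told apart from the day.

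When divided by transcript length, Lyz2 was by far the most abundant of the 10, and the cell-surface macrophage antigens were the least. Levels divided by deposited exon length and library size (RPKM) over all 13 libraries were 35.0 ± 22.7 for Lyz2 (mean ± SD, n = 13), 5.01 ± 1.52 for Csf1r, 4.56 ± 1.29 for Mertk, 4.17 ± 2.05 for Cd68, 3.39 ± 2.77 for C1qb, 2.51 ± 1.91 for C1qa, 1.64 ± 1.29 for C1qc, 0.492 ± 0.426 for Adgre1, 0.346 ± 0.178 for Itgam and 0.0783 ± 0.0607 for Cd163. Every library had more Lyz2 (8.93 to 85.8 RPKM) than any library had Csf1r (1.70 to 7.71 RPKM). From Csf1r to Itgam, each gene and its neighbour in this order had overlapping ranges and differed by less than the larger of their SDs. For Itgam, 68.7% of its exon bases (3450 of 5024) are shared in the deposited annotation with the gene Gm49368 on the same strand (0 counts in all libraries), and the default settings used for counting leave out reads that overlap several genes, so the level is a minimum. For Csf1r, 17.8% of the exon bases are shared with Hmgxb3 on the other strand. In counting without strand, reads on these bases are left out in the same way, so the level of Csf1r is also a minimum. The other 8 genes shared none.

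None of the 10 genes passed an adjusted p of 0.05 in any of the 6 comparisons among steady state and days 1, 4 and 7 (quasi-likelihood test of edgeR, with p adjusted over all genes tested after Benjamini and Hochberg). Against steady state, the same threshold was passed by 2.35% of all genes at day 1, 0.29% at day 4 and 0.005% at day 7. It was passed by 1.43% of all genes between day 4 and day 1, 8.13% between day 7 and day 1, and 3.9% between day 7 and day 4. At an unadjusted p under 0.05, there were 2 of the 10 genes at day 1 against steady state (17.2% of all genes), 0 at day 4 (13%) and 0 at day 7 (13.5%). Between time points there were 2 for day 4 against day 1 (13.7% of all genes), 3 for day 7 against day 1 (23.9%) and 0 for day 7 against day 4 (18.7%). DESeq2 passed 1 gene, Cd68, for day 1 against steady state and again for day 7 against day 1, and none in the other 4 comparisons. Of all genes given an adjusted p by DESeq2, it passed 7.22% and 12.6% in the first and second of these comparisons. For day 7 against day 4, 1 of the 10 had an unadjusted p under 0.05 with DESeq2.

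The precision of these comparisons was limited. The median standard error of a log2 fold change over the 10 genes and 6 comparisons was 0.633. Of the 60 95% intervals, 34 reached above a doubling and 30 below a halving, so that changes of that size were not excluded in many of the comparisons. In simulated data for day 1 against steady state, the fit recovered 3% of 2-fold and 66% of 4-fold changes. The changed genes were drawn at random from all but the lowest expressed ones, and not from the 10 genes. Of the 10, only Mertk had a spread within conditions (SD 0.30 on the log2 scale) under the median of all genes tested (0.37). These shares thus do not give the recovery for the 10 genes. The median log2 fold change of the 10 genes was -0.39 at day 1, -0.41 at day 4 and 0.28 at day 7 against steady state, where the median over all genes tested was -0.10, -0.13 and 0.00. It was -0.27 for day 4 against day 1 (all genes, -0.10), 0.50 for day 7 against day 1 (all genes, 0.05) and 0.92 for day 7 against day 4 (all genes, 0.11).

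**Figure D1:**
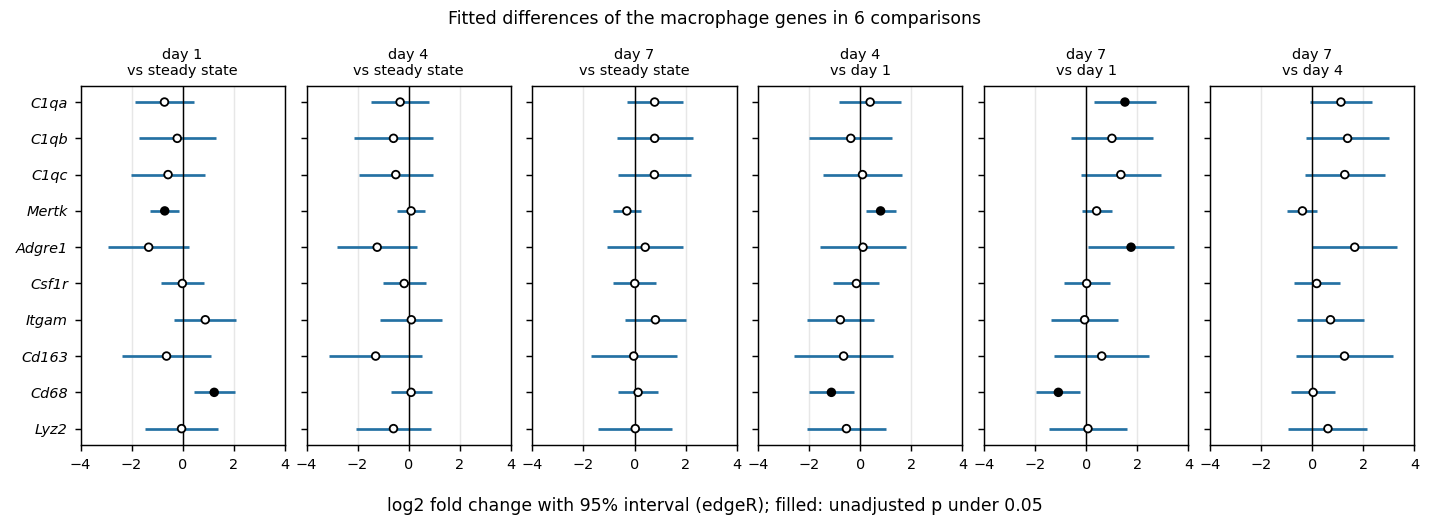
Fitted log2 fold change (point) and 95% interval (line) of each of the 10 genes in the 6 comparisons, from 1 edgeR fit to all 13 libraries. Filled points have an unadjusted p under 0.05, which 7 of the 60 do, and none passes after adjustment; the intervals run from -3.1 at the lowest to 3.42 at the highest.

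The complement genes come first by role. C1qa, C1qb and C1qc encode the 3 chains of C1q, which opsonizes dying cells and starts the classical complement pathway, and macrophages are its main source. The 3 genes are neighbours on chromosome 4 of GRCm38, minus strand, with C1qa (ENSMUSG00000036887) at 136895917 to 136898803, C1qc (ENSMUSG00000036896) at 136889804 to 136893065 and C1qb (ENSMUSG00000036905) at 136880129 to 136886187. Stretches upstream of 6 genes are shown, of which C1qb, C1qc, Itgam and Cd68 had Pearson's r of 0.90, 0.76, 0.82 and 0.68 with Lyz2 across the libraries and Mertk 0.24. They come from RefSeq promoter windows (GRCm38.p6), which were found for 7 of the 10 genes, and end before the start of the gene in both RefSeq and the deposited annotation. Each is written 5′ to 3′ on the strand of its gene, and capitals mark AGGAAGT or its reverse complement ACTTCCT, the kind of core bound by ETS factors such as PU.1 of myeloid cells.
C1qb, chr4:136886201-136886450, minus strand: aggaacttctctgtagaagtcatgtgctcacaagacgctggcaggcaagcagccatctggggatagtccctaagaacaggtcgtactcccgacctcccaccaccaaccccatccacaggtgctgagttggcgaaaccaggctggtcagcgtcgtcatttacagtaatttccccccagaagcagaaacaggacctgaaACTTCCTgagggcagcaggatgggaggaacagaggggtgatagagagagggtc
C1qc, chr4:136893066-136893164, minus strand: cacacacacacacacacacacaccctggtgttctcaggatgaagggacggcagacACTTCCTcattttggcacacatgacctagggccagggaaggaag
Lyz2, chr10:117282322-117282522, minus strand: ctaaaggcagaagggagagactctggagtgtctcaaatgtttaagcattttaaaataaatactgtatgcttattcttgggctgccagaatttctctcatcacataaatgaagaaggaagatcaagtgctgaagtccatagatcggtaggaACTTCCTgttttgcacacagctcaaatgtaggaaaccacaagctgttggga
Mertk, chr2:128698665-128698914, plus strand: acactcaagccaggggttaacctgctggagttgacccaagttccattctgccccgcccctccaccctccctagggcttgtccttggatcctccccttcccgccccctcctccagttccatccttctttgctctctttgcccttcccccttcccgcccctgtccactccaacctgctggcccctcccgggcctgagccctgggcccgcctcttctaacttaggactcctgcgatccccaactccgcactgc
Itgam, chr7:128062390-128062639, plus strand: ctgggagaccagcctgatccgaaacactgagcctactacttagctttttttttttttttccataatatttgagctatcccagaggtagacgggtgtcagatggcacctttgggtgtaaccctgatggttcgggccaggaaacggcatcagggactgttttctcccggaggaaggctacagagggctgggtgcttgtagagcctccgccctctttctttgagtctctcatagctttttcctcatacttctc
Cd68, chr11:69666171-69666420, minus strand: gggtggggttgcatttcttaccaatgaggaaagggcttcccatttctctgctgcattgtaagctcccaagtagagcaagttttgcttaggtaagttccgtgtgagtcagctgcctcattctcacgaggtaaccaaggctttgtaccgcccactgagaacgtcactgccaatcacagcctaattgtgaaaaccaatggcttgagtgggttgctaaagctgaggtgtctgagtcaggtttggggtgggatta
The capitals start at -53, -195 and -100 from the RefSeq start of C1qb, C1qc and Lyz2. In the whole windows, from 250 bases before to 50 after the start, this motif was read on both strands and was found in 3 of the 7 genes, against 9.35% of all 32851 windows. Itgam, Cd68, Cd163 and Mertk had a window without the motif, and of these Itgam, Cd68 and Cd163 varied with Lyz2 as the genes with it did. A match of letters is a description and shows no binding.

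C1qa had 3.31, 1.70, 2.88 and 2.23 CPM in the steady-state libraries (PBS day 1 replicate 2, PBS day 4 replicate 2, and PBS day 7 replicates 1 and 2, the order used throughout). It had 1.84, 1.39 and 1.40 CPM at day 1, 1.42, 2.46 and 2.13 at day 4, and 1.27, 8.83 and 3.09 at day 7. The steady-state range overlapped that of every day after TBI, and the lowest and the highest of the 13 libraries were both from day 7. C1qb had 6.14, 1.43, 4.37 and 1.94 CPM at steady state, 4.07, 2.23 and 2.72 at day 1, 2.13, 2.7 and 2.11 at day 4, and 0.738, 12.4 and 4.99 at day 7. C1qc had 5.11, 1.58, 3.51 and 2.18 CPM at steady state, 1.75, 2.37 and 2.14 at day 1, 1.42, 3.14 and 1.96 at day 4, and 0.615, 10.1 and 5.26 at day 7. For all 3 chains, replicate 2 of day 7 was the highest library and replicate 1 of day 7 the lowest, with ratios of 6.94 for C1qa, 16.7 for C1qb and 16.4 for C1qc between them. These values rest on 22 to 603 counts per library.

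Summed over the 3 chains, C1q had a mean of 9.09 CPM at steady state (SD 4.45, n = 4). The means were 6.64 ± 0.898, 6.49 ± 1.69 and 15.7 ± 14.5 CPM for days 1, 4 and 7 (3 libraries each). Day 7 differed from steady state by log2 fold changes of 0.79 for C1qa (standard error 0.511), 0.79 for C1qb (standard error 0.689) and 0.78 for C1qc (standard error 0.658), with adjusted p from 0.599 to 0.748. These differences rested on replicate 2 of day 7, without which they were -0.18, -0.24 and -0.05. Day 7 was further from day 1, with a log2 fold change of 1.51 for C1qa (standard error 0.566, adjusted p = 0.123). Without replicate 1 of day 7, that difference was 1.95 and passed the threshold (adjusted p = 0.0225), as did C1qc, with 1.88 (adjusted p = 0.0388), where 9.4% of all genes passed. With the thymocyte score (the mean log2(CPM + 0.5) of the 14 thymocyte genes) as a covariate, the sign turned for all 3 chains, to -0.79 for C1qa (adjusted p = 0.525), -2.31 for C1qc (adjusted p = 0.111) and -2.79 for C1qb (adjusted p = 0.0463). C1qb had a log2 fold change of 1.00 without the covariate (adjusted p = 0.461). With the covariate, 1.5% of all genes passed. The score did not overlap between day 1 (2.94 to 3.3) and day 7 (3.85 to 8.22), so the fit with it extrapolates. The direction of C1q at day 7 thus depended on which libraries and which covariate entered the fit.

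The 3 chains stayed in narrower proportion to each other than to Ptprc. The log2 ratio of C1qc to C1qb ran from -1.22 to 0.22 over the 13 libraries (SD 0.39), that of C1qc to C1qa from -1.05 to 0.77 (SD 0.49) and that of C1qb to C1qa from -0.78 to 1.15 (SD 0.56), against an SD of 1.73 for the log2 ratio of summed C1q to Ptprc. At day 1 the log2 ratio of C1qb to C1qa was 1.15, 0.68 and 0.96, against -0.78 to 0.89 in the other libraries, so that 2 of the 3 lay above all others. The difference was not tested.

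Mertk (ENSMUSG00000014361, chromosome 2, 128698956 to 128802894, plus strand) encodes the TAM-family tyrosine kinase that takes up dying cells. It had 32, 17.0, 22.1 and 18.3 CPM at steady state, 11.9, 12.3 and 17.2 at day 1, 23.2, 22.5 and 26.0 at day 4, and 18.6, 21.2 and 14.8 at day 7. The 3 libraries of day 1 included the lowest 2 of the 13, and the highest of day 1 lay just above the lowest of steady state. At day 1 the log2 fold change from steady state was -0.70 (standard error 0.259, 95% interval -1.26 to -0.14), which did not pass after adjustment (adjusted p = 0.195). Over 22 alternatives this difference stayed between -0.88 and -0.42, with adjusted p from 0.107 to 0.446. Day 4 was above day 1 in 3 of 3 libraries, with a log2 fold change of 0.79 (standard error 0.275, adjusted p = 0.215). The day 4 libraries also lay above all of day 7, with a log2 fold change of -0.39 for day 7 against day 4 (adjusted p = 0.482). Mertk had the smallest spread within conditions of the 10 genes, an SD of 0.30 on the log2(CPM + 0.5) scale, against a median of 0.37 over all genes tested.

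Of the surface antigens, Adgre1 (ENSMUSG00000004730, chromosome 17, 57358686 to 57483529, plus strand) encodes F4/80, the classic mouse macrophage antigen. It had 3.93, 0.900, 1.92 and 1.16 CPM at steady state, 0.650, 0.789 and 0.922 at day 1, 0.645, 0.650 and 1.20 at day 4, and 0.308, 4.57 and 3.12 at day 7. Only the highest library of day 1 and that of day 4 reached the lowest of steady state. Against steady state, the log2 fold change was -1.33 ± 0.735 (SE) for day 1, -1.23 ± 0.730 for day 4 and 0.42 ± 0.689 for day 7, and the adjusted p was 0.379, 0.468 and 0.923. Without replicate 2 of day 7 the last was -0.18. Day 7 was higher than day 1 by 1.75 (standard error 0.774, adjusted p = 0.186) and than day 4 by 1.66 (standard error 0.770, adjusted p = 0.27). Both differences passed the threshold without replicate 1 of day 7, at 2.28 (adjusted p = 0.0306) and 2.18 (adjusted p = 0.0419). In that fit 9.4% and 7.26% of all genes passed. Replicate 1 of day 7 was the lowest of all libraries for Adgre1, so leaving it out raises both differences. With the thymocyte score as a covariate, both had the opposite sign, -1.98 (adjusted p = 0.209) and -3.91. The score of day 7 overlapped neither that of day 1 nor that of day 4, so this fit extrapolates.

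Csf1r (ENSMUSG00000024621) encodes the receptor on which most macrophages depend for survival. It had 8.31, 22.5, 37.7 and 32 CPM at steady state, 30.7, 22.7 and 21.6 at day 1, 23.0, 20.7 and 23.4 at day 4, and 19.4, 23.3 and 33.0 at day 7. The group means were 25.1 ± 12.8 (SD, n = 4), 25.0 ± 4.94, 22.4 ± 1.45 and 25.2 ± 7.00 CPM (n = 3 each), and all groups overlapped. The lowest library of the 13 was PBS day 1 replicate 2, the one with the most Lyz2 and Mertk. In the 6 comparisons the log2 fold change stayed between -0.17 and 0.17. The interval at day 4 against steady state ran from -1.01 to 0.68 and that at day 7 from -0.84 to 0.85, so that changes within these bounds were not excluded. Its sign turned under several alternatives, as values this near 0 can.

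Itgam (ENSMUSG00000030786, chromosome 7, 128062640 to 128118491, plus strand) encodes CD11b, the integrin chain of monocytes, macrophages and neutrophils. It had 1.89, 0.525, 2.02 and 0.533 CPM at steady state, 2.91, 1.81 and 2.26 at day 1, 0.839, 1.44 and 1.72 at day 4, and 0.902, 3.48 and 2.28 at day 7. All libraries of day 1 lay above all of day 4, and the steady-state libraries were split into a lower and a higher pair. The log2 fold change was 0.89 at day 1 against steady state (standard error 0.561, adjusted p = 0.443) and -0.79 at day 4 against day 1 (standard error 0.608, adjusted p = 0.612). Cd163 (ENSMUSG00000008845, chromosome 6, 124304656 to 124330527, plus strand), the scavenger receptor that takes up haemoglobin bound to haptoglobin, was near the limit of detection. It had 31, 2, 57 and 5 counts at steady state, 21, 5 and 12 at day 1, 1, 11 and 20 at day 4, and 14, 35 and 24 at day 7. In 2 libraries it was at or under the floor of 3 counts. Its log2 fold change at day 4 against steady state was -1.29 with a standard error of 0.839 (adjusted p = 0.495).

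**Figure D2:**
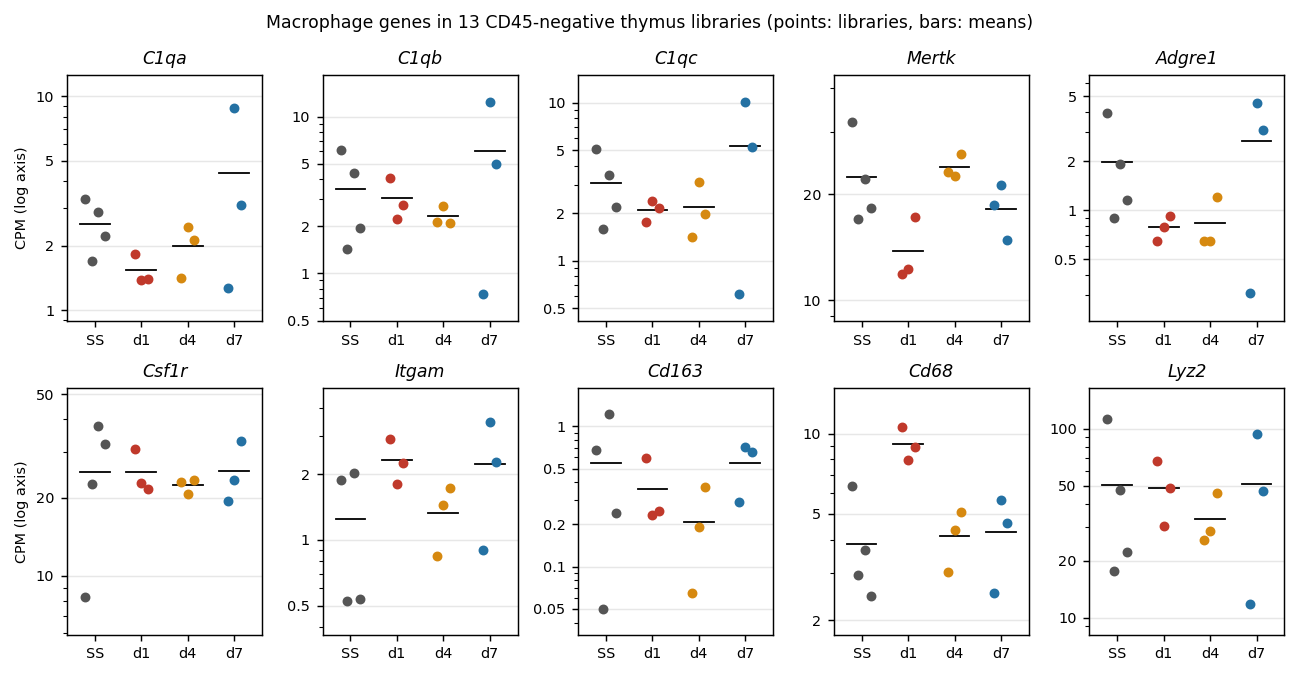
CPM of each gene (log axis, own scale in each panel) at steady state (SS, 4 libraries) and at days 1, 4 and 7 (3 libraries each); points are libraries and bars are group means. Cd68 is the gene whose 3 libraries of day 1 (7.94 to 10.6 CPM) lie above all others, and for C1qa, C1qb, C1qc, Adgre1 and Lyz2 the lowest library is one of day 7.

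The lysosomal genes differed from each other. Cd68 (ENSMUSG00000018774, chromosome 11, 69664213 to 69666153, minus strand) encodes a glycoprotein of late endosomes and lysosomes that is abundant in phagocytes. It had 6.36, 2.95, 3.68 and 2.47 CPM at steady state, 10.6, 7.94 and 8.94 at day 1, 3.03, 4.34 and 5.07 at day 4, and 2.54, 5.65 and 4.61 at day 7. Every library of day 1 was above every other library. The log2 fold change at day 1 against steady state was 1.24 (standard error 0.369, 95% interval 0.44 to 2.04, adjusted p = 0.11), and no other of the 10 genes had a smaller p in any comparison. It was -1.14 for day 4 against day 1 (standard error 0.401, adjusted p = 0.223) and -1.10 for day 7 against day 1 (standard error 0.400, adjusted p = 0.111). Days 4 and 7 were close to steady state, with 0.10 (95% interval -0.70 to 0.91) and 0.14 (95% interval -0.66 to 0.94).

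The call for Cd68 at day 1 turned on the setting. It passed the threshold with DESeq2 (log2 fold change 1.29, adjusted p = 0.014), with the thymocyte score as a covariate (1.74, adjusted p = 0.0212) and without PBS day 1 replicate 2, the highest of the steady-state libraries (1.64, adjusted p = 0.0248). In these settings, in the same order, 7.22%, 2.36% and 2.4% of all genes passed. The thymocyte score did not overlap between the groups (2.94 to 3.3 at day 1, 3.95 to 5.50 at steady state), so the fit with it extrapolates. Over the 22 alternatives the log2 fold change stayed between 1.08 and 1.74 and the adjusted p between 0.014 and 0.302. Libraries of the compared groups did not overlap for 1 of the 10 genes (Cd68) at day 1 against steady state, as for 15.8% of all genes tested. They did not overlap for 0 of the 10 at day 4 (14.7% of all genes) and 0 at day 7 (7.49%). Between time points this held for 3 genes for day 4 against day 1 (Cd68, Itgam and Mertk; 26.3% of all genes), 1 for day 7 against day 1 (Cd68; 27.5%) and 1 for day 7 against day 4 (Mertk; 26.2%).

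Some genes of other blood cells were higher at day 1 as well, whereas most of the dendritic cell genes were lower. Of 10 dendritic cell genes, 1 rose at day 1 against steady state and 0 fell past the threshold, which 2.35% of all genes passed. A negative log2 fold change was found for 8, and the median was -1.42. Of 12 neutrophil genes, Csf3r, the receptor for G-CSF, rose from 0.118 ± 0.112 CPM at steady state (n = 4) to 5.05 ± 0.770 (n = 3; log2 fold change 5.30, adjusted p = 0.000707). Cxcr2, the neutrophil chemokine receptor, rose from 0.0507 ± 0.0451 to 1.32 ± 0.619 CPM (log2 fold change 4.49, adjusted p = 0.0162), and the other 9 tested did not pass. With DESeq2, 3 of the 11 passed, as did 7.22% of all genes. All 11 tested had a positive log2 fold change, with a median of 1.12, against -0.10 over all genes. The summed level of the 12 genes overlapped between the groups, at 41.5 to 201 CPM at steady state and 150 to 269 at day 1. The part of such cells in the level of Cd68 was not tested. Relative to C1q within the same library, Cd68 was also higher at day 1, where the log2 ratio of Cd68 to summed C1q was 0.41 to 0.51, against -1.55 to -0.67 at steady state. That of Itgam was higher too (-1.73 to -1.40 against -3.57 to -2.41), and that of Adgre1 lower (-3.56 to -2.76 against -2.49 to -1.89). Summed C1q itself had a lower mean at day 1 (6.64 against 9.09 CPM), which moves the ratio of any gene. These ratios were not tested.

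Lyz2 (ENSMUSG00000069516, chromosome 10, 117277331 to 117282321, minus strand) encodes the lysozyme of macrophages, monocytes and neutrophils. It had 113, 17.6, 47.3 and 22.3 CPM at steady state, 67.3, 30.6 and 48.4 at day 1, 25.8, 28.6 and 45.5 at day 4, and 11.8, 94.1 and 47.0 at day 7. The ranges of all groups overlapped, and the libraries of steady state alone differed by a factor of 6.44 and those of day 7 by 8.01. Lyz2 had the widest spread within conditions of the 10 genes, an SD of 1.04 on the log2(CPM + 0.5) scale. The log2 fold change from steady state was -0.04 at day 1 (standard error 0.668), -0.59 at day 4 (standard error 0.677) and 0.03 at day 7 (standard error 0.667), with adjusted p from 0.702 to 0.998. Lyz1, the near-identical neighbouring gene (117287797 to 117292868), can share reads with Lyz2, which makes both uncertain. Lyz1 had 48.7 ± 52.0 CPM at steady state (n = 4), and 39.3 ± 16.3, 14.7 ± 5.54 and 7.71 ± 3.29 CPM on days 1, 4 and 7 (3 libraries each), with a log2 fold change of -2.66 at day 7 against steady state (standard error 0.784, adjusted p = 0.142). The log2 ratio of Lyz1 to Lyz2 ran from -1.15 to 0.17 at steady state, -0.38 to -0.25 at day 1, -1.35 to -1.13 at day 4 and -3.11 to -1.43 at day 7.

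Several of the genes varied together from library to library. The SD within conditions on the log2(CPM + 0.5) scale was 0.96 for C1qb, 0.90 for C1qc, 0.81 for Adgre1 and 0.63 for C1qa. Over the 13 libraries, Pearson's r of log2(CPM + 0.5) was 0.86 to 0.93 between the C1q chains, and 0.53 to 0.91 between them and Adgre1, Lyz2, Cd163 or Itgam (12 pairs). Csf1r had r from -0.54 to 0.14 with the other 9, and Mertk from -0.54 to 0.36. Ptprc had r from 0.70 to 0.84 with the C1q chains and Adgre1. These are descriptions over libraries that share depth and the blood cells each one held. When deviations from the group means were used, r was 0.92 to 0.94 between the C1q chains, 0.77 to 0.83 between Cd68 and the chains, and 0.92 to 0.98 between Ptprc and the C1q chains or Adgre1.

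**Figure D3:**
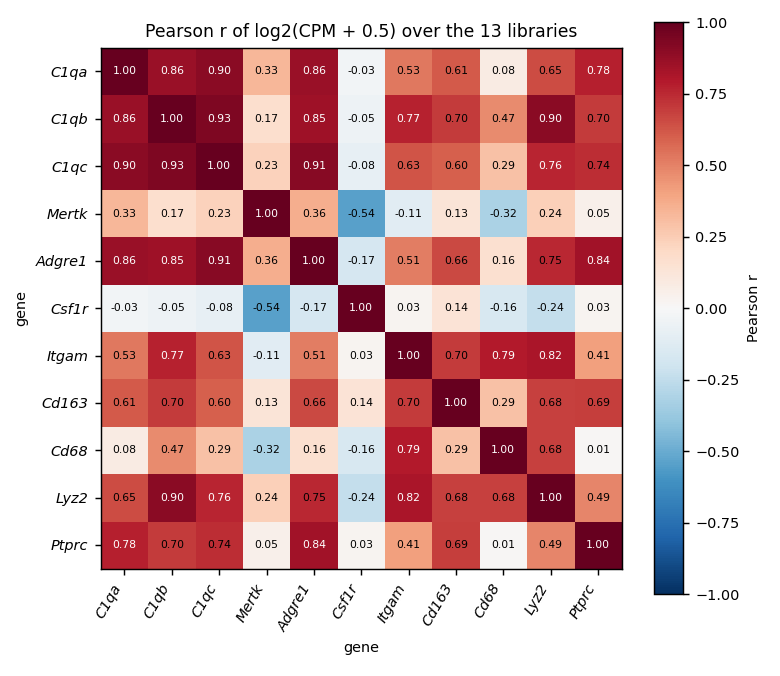
Pearson's r of log2(CPM + 0.5) over the 13 libraries for each pair of the 10 genes and Ptprc (rows and columns are genes; the colour runs from -1 in blue to 1 in red). The C1q chains form a block with r of 0.86 to 0.93, whereas Csf1r lies between -0.54 and 0.14 with the other 9 genes.

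Replicates 1 and 2 of day 7 show the difference between the genes within a single condition. Replicate 2 had 28.1 times the Ptprc and 20.5 times the Ptcra of replicate 1, as well as 14.8 times the Adgre1, 8.01 times the Lyz2, 3.86 times the Itgam, 2.50 times the Cd163 and 2.22 times the Cd68. Csf1r differed by a factor of 1.20 and Mertk by 1.14. At steady state, PBS day 1 replicate 2 had 4.97 times the Ptprc of PBS day 4 replicate 2. It also had 6.44 times the Lyz2, 4.36 times the Adgre1, 4.31 times the C1qb, 3.59 times the Itgam and 3.24 times the C1qc. The ratios were lower for Cd68 (2.16), C1qa (1.95) and Mertk (1.88), and that of Csf1r was 0.369. Csf1r thus went apart from the other genes in this pair, whereas Mertk was close to C1qa and Cd68 but below C1qb, C1qc and Itgam. Both pairs of libraries were chosen after their values were seen.

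**Figure D4:**
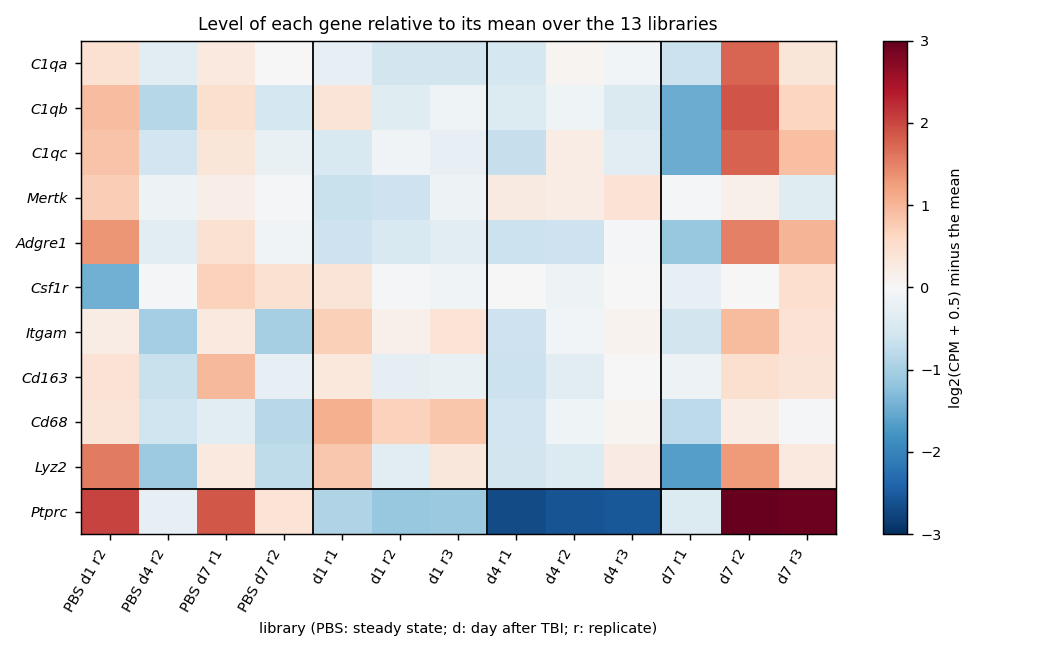
Level of each of the 10 genes and of Ptprc in each of the 13 libraries, as log2(CPM + 0.5) minus the mean of the gene over the libraries (red above, blue below; vertical lines separate steady state and days 1, 4 and 7). Replicate 2 of day 7 is red and replicate 1 of day 7 blue for C1qa, C1qb, C1qc, Adgre1 and Lyz2, whereas Csf1r is lowest in PBS day 1 replicate 2.

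At day 4 most of the macrophage genes were still counted in libraries with little Ptprc or thymocyte RNA. Ptprc was at 4.32 ± 0.239 CPM (n = 3) against 71.7 ± 47.6 at steady state (n = 4), with no overlap (log2 fold change -4.05, standard error 0.893, adjusted p = 0.0899). Of the 14 thymocyte genes, Cd8a, Cd8b1, Rag1 and Cd4 fell at day 4 against steady state, with log2 fold changes from -7.54 (Cd8b1) to -5.89 (Cd4). In the same libraries the log2 fold changes of Csf1r, Mertk, Cd68 and Itgam lay between -0.17 and 0.11, those of the C1q chains and Lyz2 between -0.59 and -0.33, and those of Adgre1 and Cd163 were -1.23 and -1.29. Among other myeloid genes, Tyrobp had -2.09 (adjusted p = 0.245) and Timd4 -2.81 (adjusted p = 0.209), both with no overlap between the groups. The groups did not overlap for 14.7% of all genes tested. Other genes of their lists did not all fall. Of 18 further macrophage genes tested, Timd4 among them, 9 had a positive log2 fold change, and the median was 0.03. Of 10 adaptor genes, Tyrobp among them, 4 had a positive one, and the median was -0.18. Relative to Ptprc within the same library, summed C1q had a log2 ratio of -3.29 to -2.35 at steady state, -1.08 to -0.97 at day 1, 0.29 to 0.93 at day 4 and -4.28 to -3.04 at day 7. The log2 ratio of Csf1r to Ptprc was 2.25 to 2.50 at day 4, against -3.84 to -0.09 at steady state, and that of Mertk was 2.36 to 2.52, against -2.26 to -0.50. In every library of day 4 these ratios were above those of all other libraries. They are ratios of CPM without regard to length, so only their change between libraries can be read, and they were not tested. Ptprc itself fell at day 4, so a gene whose level stayed the same also had a higher ratio there. The fitted differences depended on the covariate. With the thymocyte score in the fit, day 4 against steady state gave log2 fold changes of 1.80 (C1qa), 2.96 (C1qb) and 2.82 (C1qc). They were negative without it, and none of these passed the threshold. The score did not overlap between the groups (0.885 to 1.41 at day 4, 3.95 to 5.50 at steady state), so the fit with it extrapolates.

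**Figure D5:**
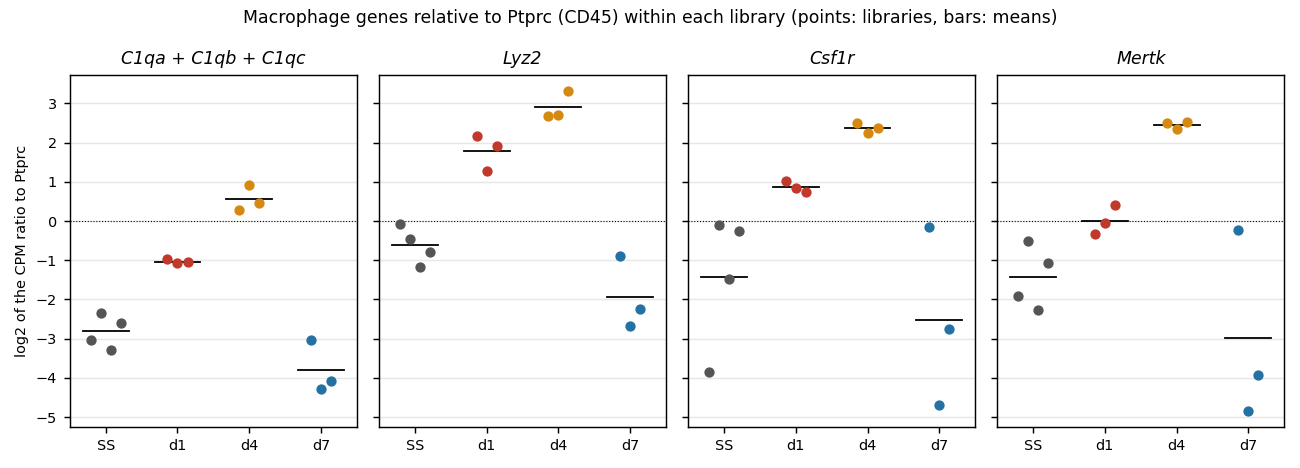
Log2 ratio of the CPM of summed C1q, Lyz2, Csf1r and Mertk to that of Ptprc within each library, at steady state (SS) and days 1, 4 and 7; points are libraries, bars are group means and the dotted line marks 0. The 3 libraries of day 4 are the highest in each panel, from 0.29 to 0.93 for summed C1q to 2.67 to 3.33 for Lyz2, and replicate 2 of day 7 is the lowest in each. Ptprc itself was lowest at day 4 and highest in replicate 2 of day 7, which moves the ratio of any gene.

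A longer list of macrophage genes held some that changed, mainly at day 1. Of 20 further macrophage genes, 18 were tested. Fcgr1, the high-affinity receptor for IgG, and Cd14, the co-receptor for lipopolysaccharide, rose at day 1 against steady state, and no other passed there (6 of the 18 had an unadjusted p under 0.05, and DESeq2 passed 4). Over all genes in this comparison, 2.35% passed, 17.2% had an unadjusted p under 0.05 and DESeq2 passed 7.22%. Cd14 went from 18.9 ± 3.63 CPM (n = 4) to 41.0 ± 4.60 (n = 3) with a log2 fold change of 1.11 (standard error 0.252, adjusted p = 0.036), and at day 7 it fell again to 15.3 ± 4.02 CPM (log2 fold change from day 1 of -1.42, adjusted p = 0.0105). Fcgr1 went from 0.0687 ± 0.0586 to 0.821 ± 0.296 CPM (log2 fold change 3.40, adjusted p = 0.0364), from 0 to 6 counts per library to 15 to 41. Timd4, a phosphatidylserine receptor of resident macrophages, was at the floor of 3 counts or under in all libraries of day 4 and rose to 0.582 ± 0.492 CPM at day 7 (adjusted p = 0.0419). None passed at days 4 and 7 against steady state, where 2 and 1 of the 18 had an unadjusted p under 0.05 and DESeq2 passed 0 and 2. Over all genes, 13% and 13.5% had such a p there, and DESeq2 passed 2.86% and 4.72%. Vsig4, a complement receptor of tissue macrophages, had 0 counts in all libraries of steady state and day 1.

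For dying-cell uptake, a wider list was examined. Of 18 efferocytosis genes, none passed the threshold at day 1, 4 or 7 against steady state (3, 1 and 3 had an unadjusted p under 0.05, and DESeq2 passed 0, 1 and 1), and their median log2 fold change was -0.13, -0.09 and -0.27. Over all genes, 17.2%, 13% and 13.5% had an unadjusted p under 0.05, and DESeq2 passed 7.22%, 2.86% and 4.72%. For day 7 against day 1, Stab2, a scavenger receptor of sinusoidal endothelium, rose by 2.24 on the log2 scale (adjusted p = 0.0263), and Elmo1, a partner of DOCK proteins in engulfment, by 1.17 (adjusted p = 0.0272). In that comparison Cd300lf, a phosphatidylserine-binding receptor of myeloid cells, fell by 2.44 on the log2 scale (adjusted p = 0.0406), and 8.13% of all genes passed. Abca1, a cholesterol exporter, fell from 372 ± 28.5 CPM at day 4 to 157 ± 40.5 at day 7 (n = 3 each, log2 fold change -1.25, adjusted p = 0.021). Between these days 3.9% of all genes passed. The summed level of the 18 genes was 3570 to 7150 CPM in all libraries, and that of the 10 macrophage genes 56.4 to 184 CPM.

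The ligands of CSF1R are Csf1 and Il34. Csf1 had 219 ± 44.5 CPM at steady state (n = 4), and 322 ± 160, 150 ± 81.0 and 224 ± 57.0 CPM on days 1, 4 and 7 (3 libraries each). Its largest difference was that of day 4 against day 1, with a log2 fold change of -1.11 (standard error 0.437, adjusted p = 0.276). Il34 had 90.3 ± 39.9, 44.6 ± 11.3, 88.0 ± 8.77 and 105 ± 30.8 CPM in the same order. The log2 fold change of Il34 was -1.02 at day 1 against steady state (standard error 0.343, adjusted p = 0.155) and 1.23 for day 7 against day 1 (standard error 0.363, adjusted p = 0.0544), where all libraries of day 7 lay above those of day 1. Of the 8 genes of this axis, which include the myeloid factors Spi1, Cebpa and Irf8, none passed in any of the 48 tests, of which 10 had an unadjusted p under 0.05 and 2 passed with DESeq2.

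Adaptors and monocyte genes followed their own courses. Tyrobp and Fcer1g, the signalling adaptors of many myeloid receptors, had 2.18 ± 0.931 and 1.86 ± 1.08 CPM at steady state (n = 4), 4.19 ± 1.03 and 6.58 ± 2.21 at day 1, 0.497 ± 0.165 and 1.13 ± 0.330 at day 4, and 2.46 ± 2.27 and 1.92 ± 1.51 at day 7 (3 libraries each), and neither passed in any comparison. Itgb2, the integrin chain that pairs with CD11b and is also made by lymphocytes, rose at day 7 against day 4 (log2 fold change 3.40, adjusted p = 0.0339) and against day 1 (2.80, adjusted p = 0.0431), with 8.14, 143 and 58.1 CPM in the 3 libraries of day 7, in the order of their Ptprc. Cd74, the MHC class II invariant chain, fell at day 7 against day 4 (-2.07, adjusted p = 0.0449). Of 7 monocyte genes, Plac8 and Ly6c2 rose at day 1 against steady state, with log2 fold changes of 3.65 (adjusted p = 0.000256) and 1.79 (adjusted p = 0.0318), and both fell again by day 7 against day 1. At day 1 against steady state 2.35% of all genes passed. A positive log2 fold change was found there for 5 of the 7, with a median of 0.45. Plac8 alone had 928 ± 560 CPM at day 1, and the summed level of the 7 genes was 605 to 1610 CPM there against 75.9 to 129 at steady state. F13a1, the coagulation factor XIII A chain of monocytes and macrophages, rose at day 7 against day 4 (4.45, adjusted p = 0.0155) and day 1 (3.48, adjusted p = 0.0201). Over all genes, 3.9% and 8.13% passed in these comparisons. At day 1 against steady state F13a1 was lower, with a log2 fold change of -1.67 that did not pass and no overlap between the groups. It had 2.95, 66.2 and 27.5 CPM in the 3 libraries of day 7 (32.2 ± 31.9), again in the order of their Ptprc, and the part of the blood cells in this was not tested. Of 8 Fc and complement receptor genes, none passed in any of the 48 tests (14 had an unadjusted p under 0.05, and 3 passed with DESeq2). The calls in these related lists were not firm: of 19, only 2 were kept with each of the 13 libraries left out in turn, both of Plac8 (day 1 against steady state, and day 7 against day 1). Of the 14 calls that involve day 7, those of Chil3, Stab2, Cd300lf and Cd74 were lost without replicate 1 of day 7, and 11 were lost without replicate 2.

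The genes most like the C1q chains over the 13 libraries were sought among 11459 genes with a mean of at least 5 CPM, by Pearson's r of log2(CPM + 0.5) with the mean of the 3 chains. The 10 highest were Grk2 and Slc35d1 (r = 0.96 each), Nabp1, Bdh1, Usp37 and Ptpn6 (0.95 each), and Phf2, Arhgap25, Zbtb18 and Il2rb (0.94 each). The 5 most like Itgam were Tnfrsf8 (0.92), Thada (0.91), Traf2 (0.89), Ly6d (0.88) and Mdn1 (0.87). The 5 most like Mertk were Stard8 (0.95), Pcdh12 (0.93) and Pcp4l1, Slco2b1 and Scn4b (0.92 each). No gene appeared in more than 1 of these lists, and the values are descriptions over 13 libraries of 4 conditions.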

How the data were processed

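Bulk RNA-seq of CD45- thymic cells was analysed in 4 libraries of steady state and 3 of each day after TBI. The authors trimmed reads with Trimmomatic 0.38, aligned them with STAR 2.7.0e to GRCm38 and counted them per gene with featureCounts 1.6.3, per the submitters' processing notes. The deposited values are whole-number counts without normalization, beside exonic length. Groups follow the labels. The methods call the bulk libraries biological replicates without saying whether each is 1 animal, and p-values measure the spread between libraries. Counts from 15721866 to 52056896 per library set the precision, and intervals over libraries include counting error.

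The 10 genes and the gene lists were chosen with earlier results of these data known. All genes were fitted together in edgeR 4.0.16 (R 4.3.3) with TMM normalization, filterByExpr() by group (minimum count 10) and the quasi-likelihood F-test. Genes with a Benjamini-Hochberg adjusted p of 0.05 or less were called. Standard errors and 95% intervals follow from the F statistic. On simulated data with 200 genes, drawn at random, changed at day 1, the fit recovered 66% of 4-fold and 3% of 2-fold changes. It called 0 unchanged genes. The named genes are the 10 genes in every library, the called genes of the related lists (at most 3 of smallest p per direction), Csf1, Il34, Lyz1, lineage markers and the genes most like C1q, Itgam and Mertk. Tyrobp, Fcer1g, Vsig4, the named neutrophil, thymocyte and dendritic genes and the pairs of libraries were added after their values were seen. Coordinates are the deposited ones. Red cell genes are not reported here. Alternatives were DESeq2 1.42.0, RLE, other filters, fewer groups, covariates, thinning, the replicate block and each library left out.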

Additional observations from a re-analysis of the deposited data

Results flagged for a closer look

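For none of the 10 genes did a library of steady state stand apart from the other 3 by Dixon's test at the 95% level. The highest gap, as a share of the range, was 0.689.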

How the results depend on the processing

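No gene of the 10 was called in any of the 6 comparisons, and this was recomputed under 23 alternatives, 13 of which left out 1 library and 1 of which was added after seeing the data. At day 1 against steady state, 1 gene (Cd68) was called with DESeq2, 1 with the thymocyte score as a covariate, and 0 to 1 with a library left out (1 without PBS day 1 replicate 2). Of all genes, DESeq2 called 7.22% there, the thymocyte covariate 2.36%, and the fit without PBS day 1 replicate 2 called 2.4%. At day 7 against day 1, DESeq2 called 1 (Cd68) and the thymocyte covariate 1 (C1qb, lower at -2.79), where 12.6% and 1.5% of all genes were called. Leaving out a library gave 0 to 3 for day 7 against day 1. It was 1 (Cd68) without PBS day 1 replicate 2 and 3 (C1qa, C1qc, Adgre1) without replicate 1 of day 7, where 10.3% and 9.4% of all genes were called. At day 7 against day 4 it was 0 to 1 (Adgre1, without replicate 1 of day 7, where 7.26% of all genes were called). At days 4 and 7 against steady state and day 4 against day 1, 0 were called under each alternative. Of 1308 log2 fold changes of single genes under the alternatives, 142 had the opposite sign to the value reported, in 50 of the 60 gene comparisons. The thymocyte covariate gave 43 of these and left-out libraries 66, many of them near 0, and the cause was not tested. The thymocyte score overlapped between the compared groups only for day 7 against steady state, so the fits with it extrapolate in the other comparisons. Among 71 genes of the macrophage, efferocytosis, CSF1, adaptor, monocyte and Fc receptor lists there were 19 calls over the 6 comparisons, against 30 without a filter, 50 with DESeq2 and 7 to 31 with a library left out (7 without replicate 3 of day 1, 31 without replicate 1 of day 7). The order of the genes per length was the same in TPM. The stricter filter dropped Cd163. With the replicate block, 0 genes were called in each of the 3 comparisons between days after TBI. Same-numbered libraries of those days did not deviate together (mean r -0.669, -0.141 and 0.0537), so the numbers do not pair them. Some libraries of days 1 and 4 with other numbers did. Replicate 1 of day 1 had r of 0.712 and 0.658 with replicates 2 and 3 of day 4. Replicates 2 and 3 of day 1 had 0.733 and 0.762 with replicate 1 of day 4, and -0.595 and -0.672 with its replicates 3 and 2. In Epcam, replicate 1 stood apart at both days (14.0 against 103 and 127 CPM, and 99.8 against 24.4 and 25.5). What these libraries share was not tested. The steady-state columns carry other numbers than the labels, and 0 genes were also called against steady state with the numbers of the columns as a replicate block, an alternative added after seeing the data. The sign turned in it for Lyz2 (0.05 at day 1, -0.05 at day 7) and Csf1r (-0.10 at day 7). Same-numbered libraries of steady state and days 1, 4 and 7 had a mean r of -0.00681, 0.055 and -0.128. Depth limited Cd163, which had 1 to 57 counts per library.

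With DESeq2, the sign turned to give Csf1r 0.04 and Lyz2 0.02 for day 1 against steady state, Cd163 0.00 for day 7 against steady state, Csf1r -0.03 for day 7 against day 1, Cd68 -0.05 for day 7 against day 4. With RLE normalization, the sign turned to give Csf1r 0.05 and Lyz2 0.03 for day 1 against steady state, Csf1r -0.03 for day 7 against day 1, Cd68 -0.04 for day 7 against day 4. With the stricter filter, the sign turned to give Csf1r 0.02 for day 1 against steady state, Csf1r -0.01 and Lyz2 -0.01 for day 7 against steady state, Csf1r -0.03 for day 7 against day 1. With counts thinned to the smallest library, the sign turned to give Csf1r -0.07 and Lyz2 -0.02 for day 7 against steady state, Csf1r -0.04 for day 7 against day 1. Without a filter, the sign turned to give Csf1r 0.00 for day 1 against steady state. With only the compared groups fitted, the sign turned to give Csf1r -0.03 and Lyz2 -0.02 for day 7 against steady state. With the replicate block, the sign turned to give Adgre1 0.00 and C1qc -0.09 for day 4 against day 1, Lyz2 -0.18 for day 7 against day 1. With the tag of the column names as a covariate, the sign turned to give Lyz2 0.05 for day 1 against steady state, Csf1r 0.00 for day 4 against steady state, Csf1r -0.02 and Cd163 0.52 for day 7 against steady state, Csf1r 0.07 and Cd163 0.01 for day 4 against day 1, Itgam 0.16 for day 7 against day 1, Csf1r -0.02 for day 7 against day 4. For day 1 against steady state the thymocyte covariate turned the sign to give Csf1r 0.15, Adgre1 0.24, Lyz2 1.29, C1qa 0.21, C1qb 1.38, C1qc 0.90 and Cd163 0.47. For day 4 against steady state the thymocyte covariate turned the sign to give Csf1r 0.21, Adgre1 2.17, Lyz2 2.29, C1qa 1.80, C1qb 2.96, C1qc 2.82 and Cd163 0.97. For day 7 against steady state the thymocyte covariate turned the sign to give Csf1r -0.19, Adgre1 -1.74, Itgam -0.20, Cd68 -0.44, Lyz2 -1.57, C1qa -0.58, C1qb -1.42 and C1qc -1.40. For day 4 against day 1 the thymocyte covariate turned the sign to give Csf1r 0.06, Itgam 0.36, Lyz2 1.00, C1qb 1.58 and Cd163 0.51. For day 7 against day 1 the thymocyte covariate turned the sign to give Csf1r -0.34, Adgre1 -1.98, Lyz2 -2.85, C1qa -0.79, C1qb -2.79, C1qc -2.31 and Cd163 -1.34. For day 7 against day 4 the thymocyte covariate turned the sign to give Csf1r -0.40, Adgre1 -3.91, Itgam -2.47, Cd68 -1.68, Lyz2 -3.85, C1qa -2.38, C1qb -4.38, C1qc -4.23 and Cd163 -1.85. With a library left out, the log2 fold change for day 1 against steady state spanned 0 for Csf1r -0.25 to 0.31, Lyz2 -0.34 to 0.80, C1qb -0.48 to 0.27 and Cd163 -1.19 to 0.22. With a library left out, the log2 fold change for day 4 against steady state spanned 0 for Csf1r -0.36 to 0.19, Itgam -0.15 to 0.57, Cd68 -0.06 to 0.55, Lyz2 -0.88 to 0.29 and Mertk -0.01 to 0.42. With a library left out, the log2 fold change for day 7 against steady state spanned 0 for Csf1r -0.29 to 0.26, Adgre1 -0.18 to 0.96, Cd68 -0.07 to 0.47, Lyz2 -0.71 to 0.77, C1qa -0.18 to 1.23, C1qb -0.24 to 1.32, C1qc -0.05 to 1.31 and Cd163 -0.41 to 0.75. With a library left out, the log2 fold change for day 4 against day 1 spanned 0 for Csf1r -0.25 to 0.01, Adgre1 -0.28 to 0.28 and C1qc -0.29 to 0.34. With a library left out, the log2 fold change for day 7 against day 1 spanned 0 for Csf1r -0.28 to 0.19, Itgam -0.59 to 0.30, Lyz2 -0.77 to 0.53 and C1qb -0.12 to 1.52. With a library left out, the log2 fold change for day 7 against day 4 spanned 0 for Csf1r -0.17 to 0.33, Cd68 -0.30 to 0.30 and Lyz2 -0.27 to 1.08.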

Other observations

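Of 10 dendritic cell genes, Bst2, a tetherin that interferon also induces in other cells, rose at day 1 against steady state from 96.0 ± 15.9 to 773 ± 372 CPM (log2 fold change 3.01, adjusted p = 0.000101 by the quasi-likelihood test of edgeR), and the other 9 did not pass. The median log2 fold change of the 10 genes was -1.42 at day 1, against -0.10 over all genes tested, of which 2.35% passed.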
